A study of Mus musculus with 16 samples.

Results

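The cytosolic RNA and DNA sensors described here are 10 of the 24485 genes measured in a time course of immortalized mouse embryonic fibroblasts. They are Ddx58 (also Rigi), Ifih1, Dhx58, Mavs, Tlr3, Eif2ak2, Mb21d1 (also Cgas), Tmem173 (also Sting1), Trex1 and Samhd1. The 10 were chosen by name for their part in nucleic acid sensing, from a series in which interferon-stimulated genes, Ifih1 among them, were already known to stand above ctl in the exp line by day 16 and to rise there relative to ctl. For that reason the values of the 10 in every line and day contrast are given as a description. No p-value of theirs is printed, and where those past a threshold are counted, the share over all genes stands beside the count and neither the count nor its changes are evidence of a difference. All 10 were matched to an Entrez gene ID and all 10 had a mean FPKM (reads scaled per length of the gene and per depth of the library) of at least 1, the filter used for tests across all genes.

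RNA was sequenced from 2 lines. The exp line was R26M2rtTA/+;TetOcre;Sdhcfl/fl and the ctl line R26M2rtTA/+;TetOcre;Sdhcfl/wt, so both carry a doxycycline-dependent transactivator and a Cre recombinase that it switches on, and both received doxycycline at 1 µg/mL. In exp, Cre can remove both copies of Sdhc, a membrane subunit of succinate dehydrogenase, and in ctl it can remove a single copy. Each line was sampled at days 0, 5, 9, 12, 16 and 20, giving 16 libraries: 3 biological replicates per line at day 16 and a single library on the remaining days. There is 1 line per genotype, so genotype and line cannot be told apart, and p-values and standard errors measure only the spread between libraries of these lines, which may be technical.

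Cells recognise foreign or misplaced nucleic acid through several routes. The helicases encoded by Ddx58 (RIG-I) and Ifih1 (MDA5) bind double-stranded RNA in the cytosol and signal through the mitochondrial adaptor MAVS, while TLR3 senses double-stranded RNA in endosomes and the kinase PKR, encoded by Eif2ak2, stops translation when it binds such RNA. Cytosolic DNA is bound by cGAS (Mb21d1), whose cyclic dinucleotide product activates STING (Tmem173). TREX1 degrades cytosolic DNA and SAMHD1 depletes deoxynucleotides, and both limit what the sensors can find. Several of these genes are themselves induced by interferon through a promoter element, the interferon-stimulated response element, so their mRNA can rise downstream of a response as well as take part in starting it.

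Promoter windows spanning the transcription start, taken from the RefSeq promoter table, were searched on both strands for the core of that element, taken as GAAA, any 2 bases, then GAAA. That table is on GRCm38.p6, and each sequence shown was placed on mm9 by an exact match at a single position. Of the 8 sensors with a window used here, 3 held the core, against 3.99% of 27025 genes with a window. These 3 are shown because they include the 2 genes with the largest differences between the lines and the kinase gene Eif2ak2. The sequences are written 5′ to 3′ in the direction of the gene, with the matched bases in capitals.

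Ddx58: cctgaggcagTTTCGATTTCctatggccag
Ifih1: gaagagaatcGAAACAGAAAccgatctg
Eif2ak2: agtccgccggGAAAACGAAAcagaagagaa

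In Ddx58 (chr4:40186837-40186866 in mm9, minus strand) the match lies on the strand opposite to the gene and begins at base 3 from the RefSeq transcription start. In Ifih1 (chr2:62484263-62484290, minus strand) it begins at base 33, and in Eif2ak2 (chr17:79281875-79281904, minus strand) at base 19, both on the gene's own strand. All 3 matches fall in the first exon, in sequence annotated as untranslated. Of the 98 other sensing genes with a window, 15 held the core, among them Ifit3 and Apobec3. A second motif, the gamma-activated site TTCNNNGAA, which reads the same on both strands, was found for Eif2ak2 and Samhd1 among the 8 sensors and in 9.55% of all genes. A match is a description of letters, not evidence of binding.

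The libraries held 18121520 to 42486438 reads in genes. For Sdhc itself, exp had 87.8 FPKM and ctl 90.5 at day 0, and the day 16 replicates 32.0 ± 5.23 and 49.4 ± 1.66 (SD, n = 3). All 10 fibroblast markers had a mean FPKM of at least 1 and their summed level was 4349 to 5096 in exp and 4003 to 4310 in ctl. Single fibroblast markers differed in both directions, 2 higher and 2 lower in exp by limma at day 16, and the lines already differed at day 0, with Col1a2 at 373 FPKM in exp against 85.6 and Pdgfra at 15.2 against 51.8. Of 10 white blood cell markers only Cd68 had a mean of at least 1, with Adgre1 and Cd3e at 0 in every library. The summed level of 9 epithelial and endothelial markers was 1.94 to 2.40 in ctl. In exp it was 158 in day 16 replicate 1 and 122 at day 20, but 10.2 and 13.0 in day 16 replicates 2 and 3 and 24.3 to 62.2 at the other days. That sum was carried by 3 keratin genes, Krt14, Krt18 and Krt8, at 107, 41.5 and 7.76 FPKM in exp replicate 1, and the endothelial genes Pecam1, Cdh5 and Kdr were below 1 FPKM. Day 16 replicates 2 and 3 also stood together in both lines: log2(FPKM + 1) values correlated at 0.995 between them in exp and at 0.997 in ctl, against 0.951 and 0.953 for exp replicate 1 and 0.979 and 0.981 for ctl replicate 1. Differences between the lines at day 16 are therefore given for replicate 1 and for replicates 2 and 3 separately as well as pooled.

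The mRNAs of both RNA routes and of the DNA route were present in both lines at every day. FPKM is scaled per length, so levels can be ordered between genes. In exp, the mean over 8 libraries was highest for Samhd1, at 36.7 FPKM, followed by Eif2ak2 at 28.1, Tmem173 at 22.4, Trex1 at 16.6, Ddx58 at 16.4, Mavs at 13.4, Mb21d1 at 8.54, Ifih1 at 4.32, Dhx58 at 2.48 and Tlr3 at 2.09. Trex1 was above Ddx58 in 3 of the 8 exp libraries, Ddx58 above Mavs in 6 and Dhx58 above Tlr3 in 6, so those neighbours were not separated beyond their spread, and the other neighbours kept their order in 8 of 8. In ctl the order was Samhd1 at 30.1 FPKM, Tmem173 at 26.8, Eif2ak2 at 24.3, Trex1 at 15.9, Mavs at 13.6, Ddx58 at 12.8, Mb21d1 at 7.52, Tlr3 at 2.08, Dhx58 at 1.82 and Ifih1 at 1.73. There Tmem173 was above Eif2ak2, Trex1 above Mavs and Tlr3 above Dhx58 in 6 of 8 libraries, and Mavs above Ddx58 and Dhx58 above Ifih1 in 5 of 8. Ifih1 thus stood last of the 10 in ctl and above both Dhx58 and Tlr3 in every exp library. The lowest number of reads behind any of these values was 60, for Dhx58 in 1 library, and every gene other than Dhx58, Tlr3 and Ifih1 had at least 286 reads in each library.

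**Figure D1:**
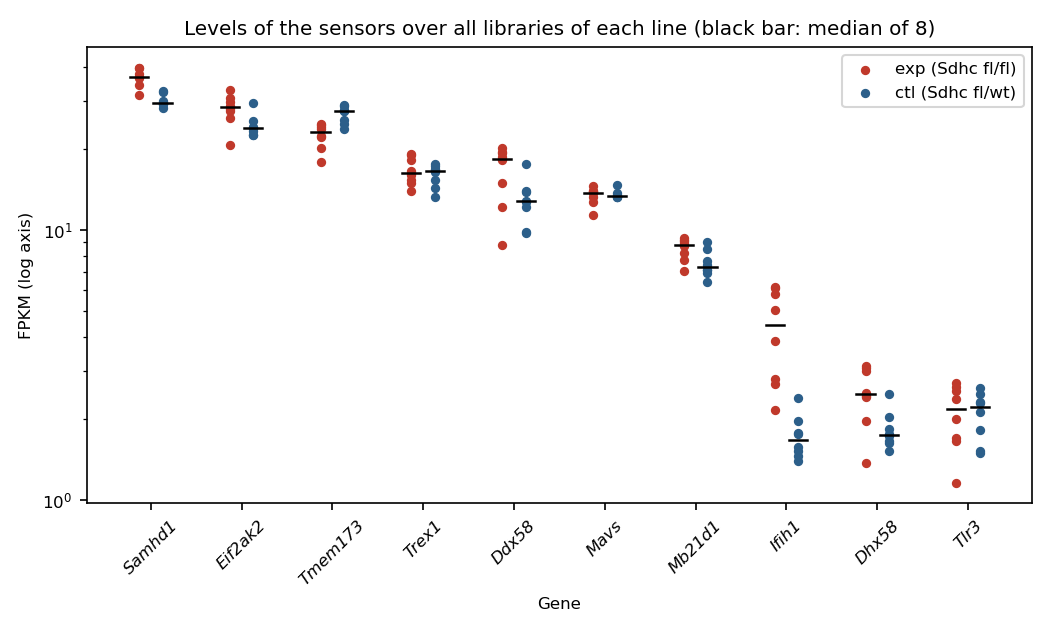
FPKM on a log axis of the 10 sensor genes in each of the 8 libraries of the exp (red) and ctl (blue) line, ordered by the exp mean, with a black bar at the median of 8. Samhd1, Eif2ak2 and Tmem173 lie highest in both lines, and Ifih1 separates the lines most, with exp libraries between 2.15 and 6.14 and ctl libraries between 1.39 and 2.38.

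Among the RNA helicases, Ifih1 had the largest difference between the lines of the 10 genes. Ifih1 (gene ID 71586, chr2:62433850-62484312 in mm9, minus strand) had 2.15 FPKM in exp at day 0, 2.80 at day 5, 2.69 at day 9, 3.86 at day 12, 5.78, 6.09 and 6.14 in the day 16 replicates and 5.03 at day 20. In ctl it had 1.97, 2.38, 1.75 and 1.77 FPKM at days 0, 5, 9 and 12, then 1.57, 1.39 and 1.52 at day 16 and 1.46 at day 20. The lines were close at day 0, exp was the higher at all 6 days, and from day 9 on every exp library was above every ctl library of the series. The exp replicates of day 16 averaged 6.004 ± 0.197 FPKM and the ctl replicates 1.495 ± 0.0914 (SD, n = 3), a ratio of 4.02. Relative to its own day 0, exp stood at 2.80 times and ctl at 0.760 times.

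Ddx58 differed in the opposite direction at the start of the series. Ddx58 (gene ID 230073, chr4:40150806-40186861, minus strand) had 8.77, 12.1, 14.9 and 19.3 FPKM in exp at days 0, 5, 9 and 12, then 18.7, 18.1 and 20.1 at day 16 and 19.5 at day 20. In ctl the values were 12.8, 17.5, 13.9 and 13.8 FPKM, then 12.7, 9.73 and 9.84 at day 16 and 12.2 at day 20. Exp minus ctl on the log2(FPKM + 1) scale was -0.50 at both day 0 and day 5, 0.10 at day 9 and 0.46, 0.77 and 0.64 at days 12, 16 and 20, so the lines changed places around day 9. At day 16 exp averaged 18.9 ± 1.01 FPKM and ctl 10.8 ± 1.67 (SD, n = 3), with no overlap. Exp at day 16 stood at 2.16 times its day 0, all 7 later exp libraries being above day 0, while ctl stood at 0.839 times.

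Dhx58 encodes LGP2, a helicase without signalling domains that modulates the other 2. Dhx58 (gene ID 80861, chr11:100556018-100565585, minus strand) ran from 1.37 to 3.13 FPKM in exp, with 1.96 at day 0, 2.40, 3.13 and 3.08 at day 16 and 3.002 at day 20. Its lowest exp value was at day 5, and in ctl the same day had the highest value, 2.47 FPKM. The ctl replicates at day 16 had 1.72, 1.62 and 1.51 FPKM, all below the exp replicates, and averages were 2.87 ± 0.408 for exp and 1.62 ± 0.105 for ctl (SD, n = 3). A noncoding gene, Gm11547, overlaps Dhx58 on the opposite strand, and whether the counting used strand is not given in the sources used here.

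**Figure D2:**
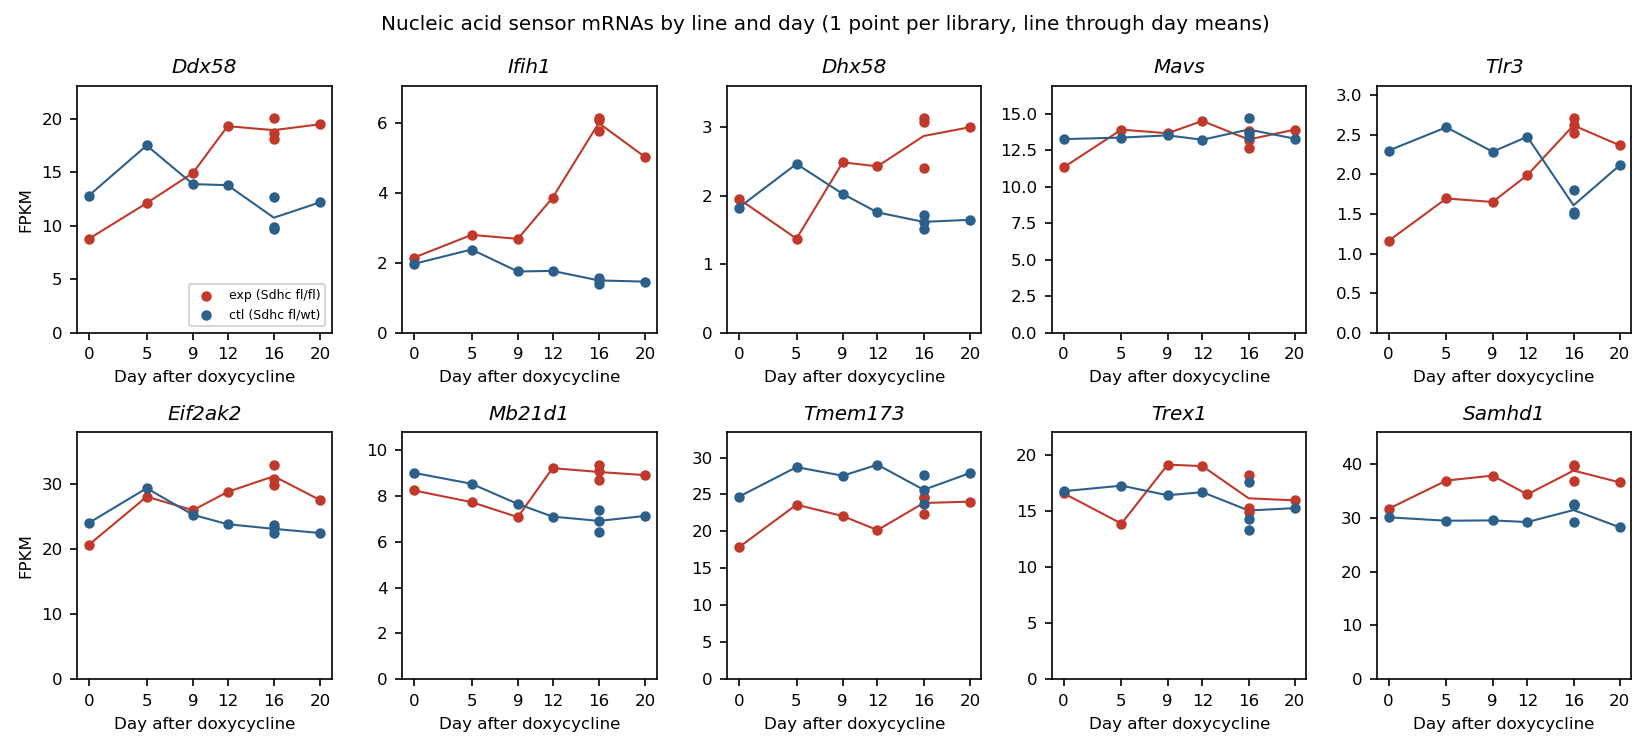
FPKM of each of the 10 sensor genes (vertical axes from 0) against the day after doxycycline, with 1 point per library and a line through the day means, for exp (red) and ctl (blue). Ifih1 and Ddx58 climb in exp and not in ctl, Tlr3 crosses between day 12 and day 16, and Mavs and Trex1 overlap between the lines at day 16.

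Mavs, the adaptor shared by RIG-I and MDA5, was nearly flat. Mavs (gene ID 228607, chr2:131059799-131073761, plus strand) had 11.3 FPKM in exp at day 0 and 12.7 to 14.5 in the 7 later exp libraries, and 13.2 to 14.7 in all 8 ctl libraries. At day 16 the exp replicates had 13.8, 12.7 and 13.2 FPKM and the ctl replicates 13.7, 13.4 and 14.7. The replicates overlapped, and the difference, exp minus ctl, was -0.07 ± 0.07 (SE) on the log2(FPKM + 1) scale. As a description, the day 16 replicates of Ifih1 and Ddx58, the sensors upstream of this adaptor, did not overlap between the lines, while those of the adaptor did.

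Tlr3, the endosomal receptor, was among the least abundant sensors in both lines and changed sides late. Tlr3 (gene ID 142980, chr8:46481019-46495962, minus strand) had 1.16, 1.70, 1.65 and 1.99 FPKM in exp at days 0, 5, 9 and 12 against 2.30, 2.60, 2.29 and 2.48 in ctl. At day 16 it had 2.62, 2.71 and 2.53 FPKM in exp against 1.81, 1.52 and 1.498 in ctl, and at day 20 2.37 against 2.12. Exp was lower at each of the first 4 days and higher at the last 2. By day 16 exp was 2.26 times its day 0 and ctl 0.699 times, so the values went in opposite directions in the 2 lines. The ctl value at day 20 was again above the 3 ctl values of day 16.

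Eif2ak2, the PKR gene, was abundant throughout. Eif2ak2 (gene ID 19106, chr17:79251904-79281913, minus strand) had 20.7, 28.1, 26.0 and 28.8 FPKM in exp at days 0, 5, 9 and 12, then 29.9, 30.8 and 33.0 at day 16 and 27.6 at day 20. Ctl had 24.1, 29.4, 25.3 and 23.9 FPKM, then 23.2, 23.8 and 22.4 at day 16 and 22.5 at day 20. Both lines were higher at day 5 than at day 0, and exp was below ctl at day 0 and above it from day 12. Exp minus ctl was -0.21 in log2(FPKM + 1) at day 0, -0.06 and 0.04 at days 5 and 9, and 0.26, 0.42 and 0.28 at days 12, 16 and 20. The day 16 ratio was 1.35. A long noncoding RNA gene, Gm16825, and a ribosomal RNA gene overlap Eif2ak2 on the opposite strand.

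On the DNA side, cGAS and STING moved in different ways. Mb21d1 (gene ID 214763, chr9:78278333-78291044, minus strand, listed there as E330016A19Rik) started at 8.24 FPKM in exp and at 9.01 in ctl. At day 16 the exp replicates had 8.70, 9.37 and 9.08 FPKM and the ctl replicates 7.39, 6.92 and 6.41. The replicates did not overlap, and ctl lay further from its starting level than exp: exp stood at 1.10 times its day 0 and ctl at 0.767 times, with all 7 later ctl libraries below ctl day 0. A noncoding gene, Gm8093, lies opposite to Mb21d1.

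Tmem173, the STING gene, was lower in exp at all 6 days. Tmem173 (gene ID 72512, chr18:35893332-35900208, minus strand) had 17.8, 23.6, 22.1 and 20.2 FPKM in exp at days 0, 5, 9 and 12, then 24.7, 22.4 and 24.5 at day 16 and 24.0 at day 20. In ctl it had 24.7, 28.7, 27.5 and 29.0 FPKM, then 27.7, 23.7 and 25.6 at day 16 and 27.9 at day 20. The exp-minus-ctl difference was -0.45 on the log2(FPKM + 1) scale at day 0 and -0.50 at day 12, and at day 16 it was -0.10 ± 0.08 (SE), where the replicates overlapped. All 7 later exp libraries were above exp day 0. STING mRNA was therefore among the most abundant of the 10 in both lines and was not higher in exp at any day.

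The 2 genes that limit cytosolic nucleic acid or its precursors also differed from each other. Samhd1 (gene ID 56045, chr2:156923265-156961001, minus strand) had 31.7 FPKM in exp at day 0 and 34.3 to 39.9 in the 7 later exp libraries, whereas the 8 ctl libraries ran from 28.2 to 32.6. Exp was above ctl at all 6 days, by 0.07 on the log2(FPKM + 1) scale at day 0 and by 0.23 to 0.36 afterwards. This gap was there by day 5, at 36.9 FPKM against 29.5, and did not grow with time as that of Ifih1 did.

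Trex1 showed no separation of the lines. Trex1 (gene ID 22040, chr9:108960447-108962852, minus strand) had 18.2, 15.3 and 14.9 FPKM in the exp replicates of day 16 and 17.6, 13.3 and 14.3 in the ctl replicates. In both lines replicate 1 was the highest, and the lines overlapped. Across all days exp ran from 13.9 to 19.1 FPKM and ctl from 13.3 to 17.6. Trex1 overlaps Atrip on the same strand, so how reads were divided between the 2 genes is uncertain.

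On a common scale, the day 16 differences ran from Ifih1 down to Tmem173, and neighbours such as Eif2ak2 and Mb21d1 lay within their errors of each other. Exp minus ctl in log2(FPKM + 1), on which changes of low genes come out too small, was 1.49 ± 0.08 (SE) for Ifih1, 0.77 ± 0.11 for Ddx58, 0.56 ± 0.11 for Dhx58, 0.47 ± 0.10 for Tlr3 and 0.42 ± 0.06 for Eif2ak2. It was 0.35 ± 0.07 for Mb21d1, 0.30 ± 0.07 for Samhd1, 0.10 ± 0.12 for Trex1, -0.07 ± 0.07 for Mavs and -0.10 ± 0.08 for Tmem173. The median of the 10 was 0.38, beside -0.01 over all genes tested. The 5 RNA-binding sensors were the members past the adjusted p threshold of 0.05 in limma, all of them higher in exp, where 3.1% of 12533 genes were higher and 3.01% lower. Since the members were chosen with this contrast known, nothing is read from that count. Dhx58 and Tlr3 lay just inside the threshold and Mb21d1 just outside it.

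The day 16 calls of single members depended on the replicates. Without exp replicate 2, exp replicate 3, ctl replicate 2 or ctl replicate 3, only Ifih1 of the 10 stayed past the threshold. Without ctl replicate 1, 4 members did (Ddx58, Eif2ak2, Ifih1 and Tlr3), and without exp replicate 1, 7 did, Mb21d1 and Samhd1 in addition. With the replicate number as a block, 4 were past it, Samhd1 having joined and Dhx58 and Tlr3 having left. Over all genes 1.57% to 1.93% were called in the 4 fits that left Ifih1 alone. The share was 4.53% without ctl replicate 1, 12.8% without exp replicate 1 and 8.16% with the block, beside 6.1% in the full fit. With 1 library left out, the counts of members thus moved with the number of genes called at large. With the block they did not, since members went from 5 to 4 while the share over all genes rose. The sizes of the differences were smaller in replicate 1 than in replicates 2 and 3 for the RNA sensors: 0.52 against 0.90 for Ddx58, 0.32 against 0.68 for Dhx58, 0.37 against 0.53 for Tlr3 and 0.35 against 0.45 for Eif2ak2 in log2(FPKM + 1). For Ifih1 they were 1.40 and 1.54, and for Samhd1 0.32 and 0.28. Each of the 5 RNA sensors was thus higher in exp both within replicate 1 and within replicates 2 and 3. For Ddx58 and Tlr3 exp replicate 1 lay between the other exp replicates, and ctl replicate 1 was the highest of ctl. It had 12.7 FPKM against 9.73 and 9.84 for Ddx58 and 1.81 against 1.52 and 1.498 for Tlr3. For Dhx58 and Eif2ak2 exp replicate 1 was the lowest of exp, at 2.40 and 29.9 FPKM. The keratin genes were high in exp replicate 1, with Krt14 at 107 FPKM against 5.71 and 9.11 in exp replicates 2 and 3, and their part in the differences was not tested.

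In 7 of the 10 genes the 3 exp replicates of day 16 were all above the 3 ctl replicates, where 15.5% of all genes tested were above and 16.5% below. These are the 5 RNA sensors, Mb21d1 and Samhd1, and no sensor had exp below ctl without overlap. In bulk RNA, a change in the number of cells that make a transcript and a change in the amount per cell cannot be told apart.

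**Figure D3:**
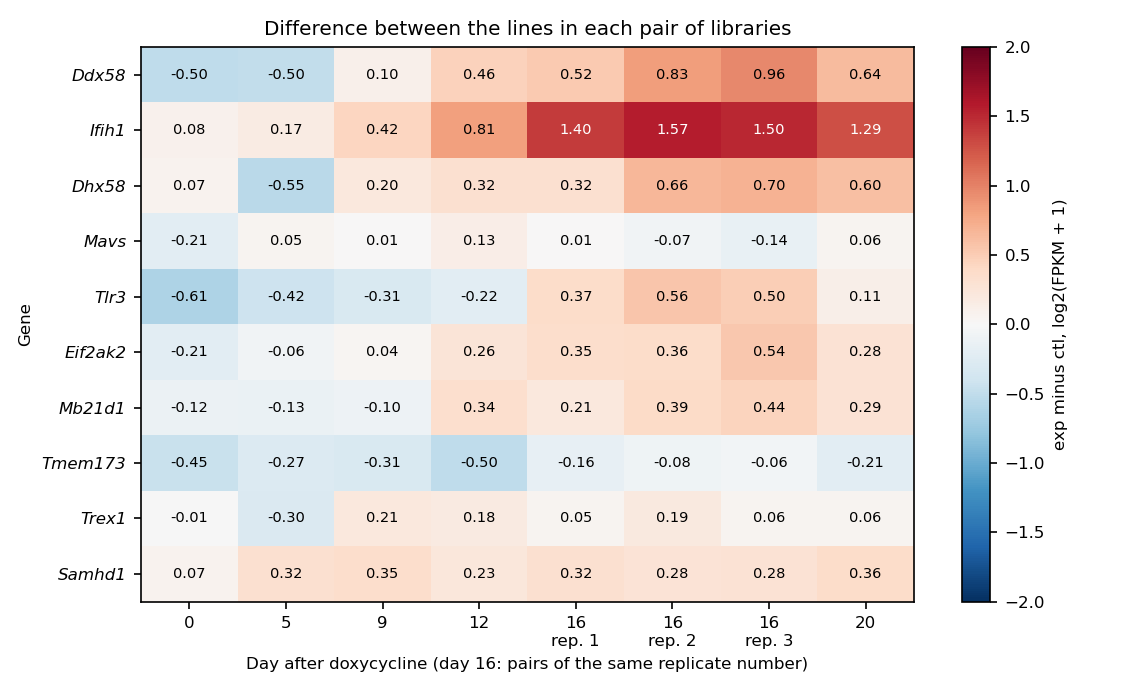
Exp minus ctl in log2(FPKM + 1) for the 10 sensor genes (rows) in each pair of libraries of the same day (columns), with the 3 day 16 pairs by replicate number. Red cells are higher in exp and blue cells lower, and Ifih1 reads from 0.08 at day 0 to between 1.40 and 1.57 at day 16, whereas Tmem173 is below 0 in every column.

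Over time, exp rose relative to ctl most for Ifih1 and Ddx58 on the log2(FPKM + 1) scale. For Ifih1 the lines moved apart, while for Ddx58 they changed places. How far exp minus ctl moved in 20 days, from a model with a shared day factor over all 16 libraries, was 1.70 ± 0.26 (SE, log2 per 20 days) for Ifih1 and 1.54 ± 0.25 for Ddx58. Next were Tlr3 at 1.13 ± 0.27, Dhx58 at 0.92 ± 0.29, Eif2ak2 at 0.67 ± 0.14 and Mb21d1 at 0.60 ± 0.17. The order of Ddx58 and Tlr3 depended on how low values were treated: by voom Tlr3 was at 1.80 and Ddx58 at 1.67, and at a pseudocount of 0.1 they were at 1.654 and 1.645. The remaining 4 were smaller, at 0.31 ± 0.17 for Tmem173, 0.22 ± 0.23 for Trex1, 0.18 ± 0.14 for Samhd1 and 0.11 ± 0.15 for Mavs. The median of the 10 was 0.63 against -0.06 over all genes. Ifih1 and Ddx58 were past the threshold, beside 0.183% of 12559 genes with a rising difference, and again nothing is read from the count of members.

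This pair of calls depended on single days and libraries, as did the calls over all genes, of which the full fit had 26 of 12559. No member was past the threshold without exp replicate 2, exp replicate 3, ctl replicate 2 or ctl replicate 3 of day 16, without day 0, day 5, day 9, day 12 or day 16, or without both replicates 2 and 3. In those fits 0 to 14 of all genes were called. Both members stayed past the threshold without day 20 or without exp replicate 1, where 27 and 35 of all genes were called. Ddx58 alone was past it without ctl replicate 1, and also with the replicate number as a block, where 1 member was called in place of 2. Over all genes these 2 fits called 19 and 37. The direction was the same in every fit for both Ifih1 and Ddx58, and leaving out a day gave 1.30 to 1.996 for Ifih1 and 1.31 to 1.79 for Ddx58.

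In exp, the slope over 20 days was 1.29 ± 0.19 (SE, log2) for Ifih1, 1.11 ± 0.20 for Ddx58, 0.76 ± 0.18 for Tlr3, 0.64 ± 0.18 for Dhx58 and 0.44 ± 0.14 for Eif2ak2. Ifih1, Ddx58 and Tlr3 were past the threshold, where 1.36% of 12559 genes rose. No member was past it without day 0, where 0.0717% of all genes were called. None was past it without day 16 either, but no share over all genes is given for that fit, so nothing is read from it. The median slope of the 10 in exp was 0.38 beside -0.09 over all genes. Rescaling the libraries by median of ratios moved that median over all genes to 0.02 and brought the count of members to 5, with Dhx58 and Eif2ak2 added. Over all genes 2.09% rose there. Without day 5 the count was also 5, with Eif2ak2 and Tmem173 added. There 2.04% of all genes rose and 11% were called in either direction, against 4.95% in the full fit.

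In ctl the slopes of the same 5 genes were negative, at -0.43 for Ddx58, -0.41 for Ifih1, -0.37 for Tlr3, -0.28 for Dhx58 and -0.225 for Eif2ak2. None of the 12559 genes was past the adjusted threshold in limma in ctl (0%), where 203 genes were at an unadjusted p under 0.05. Limma's voom on whole reads recovered from the FPKM also gave 0 after adjustment and 269 before it. The median of the 10 in ctl was -0.25, beside -0.03 over all genes.

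The rest of the sensing machinery was taken from lists of 117 genes, of which 95 passed the filter. These lists too were chosen with earlier results of these data known, so their calls and p-values are not independent evidence. At day 16, 6 of the 95 were higher in exp and 1 was lower by limma, beside 3.1% higher and 3.01% lower over all genes. The median of the 95 was 0.02, so most of the machinery around the sensors did not pass the test. Irf7, the transcription factor that amplifies interferon production, had 11.2, 13.2 and 13.6 FPKM in exp against 3.48, 2.42 and 2.89 in ctl. Its difference was 1.81 ± 0.13 (SE, log2(FPKM + 1), adjusted p = 0.00138). Irf7 had been close in the lines at day 0, with 3.70 FPKM for exp and 4.16 for ctl. Phrf1 overlaps Irf7 on the opposite strand.

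Ifit3, an interferon-induced scaffold that bridges MAVS and its kinase, had 17.8, 24.9 and 23.9 FPKM in exp and 9.23, 7.01 and 7.45 in ctl at day 16. The difference was 1.38 ± 0.16 (SE, log2(FPKM + 1), adjusted p = 0.0072 by limma). At day 0 Ifit3 stood lower in exp, at 4.92 against 9.76 FPKM, the same order as Ddx58 and Tlr3 had at that day. Its near-identical paralog Ifit3b may share reads with it.

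Adar and Apobec3 were the 2 of 16 tested nucleases and RNA modifiers called higher in exp at day 16. Adar, which edits double-stranded RNA so that MDA5 ignores it, had 16.2, 16.7 and 17.8 FPKM in exp and 11.2, 10.9 and 10.6 in ctl at day 16, a difference of 0.59 ± 0.06 (SE, log2(FPKM + 1), adjusted p = 0.00521 by limma). Apobec3, a cytidine deaminase that acts on retroviral DNA, had 4.62, 6.79 and 6.63 FPKM in exp and 1.40, 2.30 and 2.58 in ctl, a difference of 1.19 ± 0.20 (adjusted p = 0.0292 by limma). The 2 genes differed in their history: on day 0 Adar stood at 12.2 FPKM in exp against 10.9, while Apobec3 was already at 5.67 against 1.61. Dnase2a, the lysosomal DNase, and Skiv2l, a helicase of the cytosolic RNA exosome, were named next by p and were not past the threshold, at -0.39 ± 0.13 and -0.12 ± 0.05. With the replicate block Dnase2a passed, at an adjusted p of 0.0358 by limma.

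Of the 12 tested cofactors of the RNA helicases, Zc3hav1 alone was called at day 16. It encodes ZAP, a CpG-binding antiviral protein, and had 21.6, 19.1 and 19.4 FPKM in exp against 14.8, 14.5 and 15.8 in ctl, a difference of 0.39 ± 0.07 (SE, log2(FPKM + 1), adjusted p = 0.0354 by limma). Ddx60, an antiviral helicase gene of this list, fell below the filter and was not tested. At day 16 Ddx60 had 0.486, 0.573 and 0.543 FPKM in exp against 0.086, 0.13 and 0.0946 in ctl. It was picked out after its values were seen. Trim25, the ubiquitin ligase linked to RIG-I, was at 16.2, 13.3 and 14.3 FPKM in exp and 14.2, 12.0 and 12.5 in ctl and did not pass at day 16. Its exp value had started lower, at 6.97 FPKM against 14.1 in ctl at day 0. The exp slope of Trim25 was 1.19 ± 0.21 per 20 days (SE, log2, adjusted p = 0.0107 by limma), while its ctl values ran from 12.0 to 17.9 FPKM. Zcchc3, a cofactor of both RIG-I and cGAS, had 20.7 FPKM in exp replicate 1 but 9.09 and 8.83 in replicates 2 and 3, and its difference of 1.12 ± 0.36 was not past the threshold.

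Of the 21 tested genes of other DNA sensors and STING regulation, Ifi35 alone passed, at 0.39 ± 0.08 (SE, log2(FPKM + 1), adjusted p = 0.0449 by limma). Ifi35 is an interferon-induced leucine zipper protein and had 29.7, 26.7 and 27.9 FPKM in exp against 23.0, 19.5 and 20.9 in ctl. Slc19a1, a carrier of folates and of cyclic dinucleotides, and Xrcc5, a subunit of the DNA-binding Ku complex, were at 0.24 ± 0.06 and -0.21 ± 0.07 and did not pass. Aim2 reached at most 0.475 FPKM and Zbp1 at most 0.656 in any library, so these 2 sensors of DNA and of Z-form nucleic acid were below the filter of 1 FPKM and were not tested. Both were singled out after their values were seen, as were the Toll-like receptor genes with low values named below.

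The single gene lower in exp was Cyld, a deubiquitinase that restrains signalling by RIG-I and its kinases. It had 11.3, 11.2 and 11.3 FPKM in exp and 13.8, 13.7 and 13.8 in ctl at day 16, a difference of -0.27 ± 0.05 (SE, log2(FPKM + 1), adjusted p = 0.0404 by limma). Cyld was also lower in exp at day 0, at 10.3 against 14.6 FPKM. Among the other MAVS signalling genes, the transcription factor gene Irf3 and the kinase gene Tbk1 overlapped between the lines at day 16, at 18.9 to 20.7 against 16.9 to 20.6 FPKM for Irf3 and 11.4 to 13.1 against 10.5 to 14.4 for Tbk1. These 2 were picked out after their values were seen.

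None of the 9 tested adaptors and chaperones of the endosomal Toll-like receptors and none of the 12 tested genes of the eIF2 kinases passed at day 16. The 4 receptor genes of that list fell below the filter. Unc93b1, which carries these receptors to endosomes, had 1.72, 2.11 and 2.195 FPKM in exp and 3.33, 2.96 and 2.90 in ctl (-0.44 ± 0.11, adjusted p = 0.0726 by limma). Ppp1r15a, a subunit of the eIF2 phosphatase, was at 0.43 ± 0.12 (adjusted p = 0.0997 by limma, and 0.0387 with the replicate block, which passed). Tlr7 reached at most 0.152 FPKM, Tlr9 0.0308, Tlr13 0.0195 and Tlr8 0.00568 in any library, so Tlr3 was the only one of these 5 endosomal receptors above 1 FPKM.

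**Figure D4:**
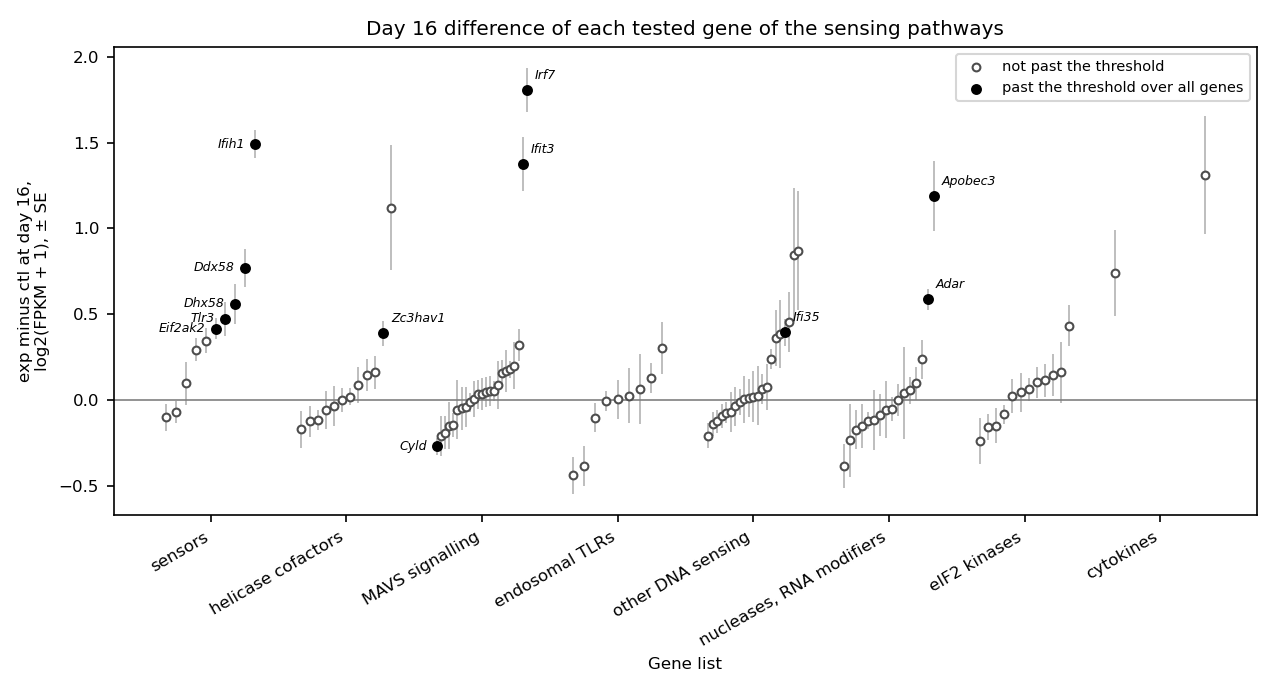
Exp minus ctl at day 16 in log2(FPKM + 1), with SE, of every tested gene by list, with named filled points for those past the adjusted threshold over all genes. Filled points among the 10 sensors are not to be read against the others, since the sensors were chosen with this contrast known. The other lists were also chosen with earlier results of these data known, so their filled points are not independent evidence. Of the 95 other genes 7 are filled, beside 6.1% of all genes, with Irf7 highest at 1.81 and Cyld lowest at -0.27.

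The calls among the other genes were also sensitive to single libraries. Irf7, Ifit3 and Adar stayed called whichever 1 of the 6 day 16 libraries was left out. The total of 7 fell to 3 (those same genes) without exp replicate 2, exp replicate 3, ctl replicate 2 or ctl replicate 3. In those 4 fits 3.16% of the 95 were called, beside 1.57% to 1.93% of all genes. The total was 4 without ctl replicate 1, 4.21% of the 95 beside 4.53% of all genes. It was 8 without exp replicate 1, 8.42% beside 12.8%, so these totals moved with the share over all genes. With the replicate number as a block, 12 of the 95 were called, 10 higher and 2 lower, with Cxcl10, Ccl5, Mnda and Ppp1r15a added among the higher and Dnase2a among the lower. That is 12.6% of the 95, beside 8.16% of all genes with the block. Within replicates 2 and 3 alone, 30 were called, 22 higher and 8 lower, which is 31.6% of the 95 beside 34.7% of all genes tested there, a share near the background. In the slope difference none of the 95 was past the adjusted threshold in limma, where 14 had an unadjusted p under 0.05. By voom on recovered reads the counts were 0 and 13. Without day 20, 2 of them passed, Irf7 and Ifit3, among 27 of 12562 genes called.

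Within exp, 6 of the 95 rose and 1 fell over the 20 days by limma, beside 1.36% rising and 3.59% falling over all genes. Besides Trim25 and Zc3hav1 (0.56 ± 0.11, SE, log2 per 20 days) these were Irf7 at 1.74 ± 0.32, Ifit3 at 1.97 ± 0.32, Adar at 0.51 ± 0.12 and the death-domain adaptor Fadd at 0.35, with adjusted p-values of 0.0122, 0.00674, 0.0313 and 0.0456. Ikbke, the inducible kinase that acts beside TBK1, fell by 0.66 (adjusted p = 0.0385 by limma), from 5.73 FPKM at day 0 to 2.86 at day 20. No gene of the 95 was past the threshold in exp without day 0, where 0.0717% of all genes were called. The same held without day 16, for which no share over all genes is given here. With the replicate block Fadd was no longer called and Ccl5 and Ifi205 were, among 7 rising and 2 falling genes. That is 9.47% of the 95, beside 8.25% of all genes with the block.

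Transcripts of the cytokines that these routes switch on were mostly not detectable at this depth. Ifna4, Ifna5, Ifnl2 and Ifnl3 were listed at 0 in all 16 libraries and Ifna2 in all but 1. Ifnb1, the first interferon made by most fibroblasts, had 0 to 2 reads per library and 6 reads in all, and Tnf 2 reads in all. A count of 0 allows up to 3 expected reads in a library, by counting error alone. Il6 reached at most 0.236 FPKM.

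The chemokines Cxcl10 and Ccl5 were the 2 of 12 cytokines that passed the filter. Cxcl10 had 20.2, 10.4 and 11.5 FPKM in exp and 7.87, 3.38 and 4.08 in ctl at day 16, with no overlap, and a difference of 1.31 ± 0.34 (SE, log2(FPKM + 1), adjusted p = 0.0865 by limma). With the replicate block its adjusted p by limma was 0.00443, which passed. Unlike Ifih1, it already stood at 15.1 FPKM in exp against 10.7 on day 0. Ccl5 had 5.36, 3.02 and 3.47 FPKM in exp and 2.86, 1.37 and 1.67 in ctl (0.74 ± 0.25, adjusted p = 0.153 by limma, and 0.0212 with the replicate block). At day 16 both chemokines were highest in replicate 1 in both lines.

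As a description, each sensor was compared across the 16 libraries with 8989 named genes of at least 5 FPKM on average. The libraries share lines and days, so the points are not independent. For Ddx58 the genes most alike were the interferon-inducible GTPases Igtp (r = 0.961) and Irgm2 (r = 0.957) and Ifit3b (r = 0.952). For Ifih1 they were Parp9 (r = 0.966), Adar (r = 0.953) and Rspo3 (r = 0.947), and for Dhx58 Irf7 (r = 0.918), Parp12 (r = 0.896) and Adar (r = 0.889). For Tlr3 they were Irgm2 (r = 0.856), Tnfrsf1b (r = 0.827) and Isoc1 (r = 0.823), and for Eif2ak2 Dtx3l (r = 0.905), Rtp4 (r = 0.886) and Antxr2 (r = 0.883).

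Of the other 5 sensors, Samhd1 was nearest to the aminotransferase gene Gpt2 (r = 0.961), Tmem173 to the collagen gene Col5a2 (r = 0.927), Trex1 to Ubald1 (r = 0.904), Mavs to Selenon (r = 0.81) and Mb21d1 to Msl2 (r = 0.788).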

How the data were processed

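The values analysed are FPKM per gene, deposited by the authors as 1 file per library with 24485 Entrez gene IDs. The submitters' processing notes name mm9 and Bowtie2 2.2.3. How reads were assigned to genes, and whether strand was used, is not given in the sources used here. Among the IDs, 24416 were matched to a symbol, including all 10 sensors and 117 of 118 other listed sensing genes. The members and lists were chosen with earlier results of these data known.

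Tests used limma 3.58.1 in R 4.3.3 on log2(FPKM + 1), with trend and robust settings, on genes averaging at least 1 FPKM. Calls are two-sided, by Benjamini-Hochberg adjustment over all genes tested, at 0.05. The day 16 fit used the 6 day 16 libraries. The time fits took in all 16 libraries, with day as a factor shared by the lines and a line-by-day term for the difference in slope, and slopes per line from a joint fit. Since a gene's FPKM values step by 1 read, whole reads could be recovered for 18966 genes (tolerance 0.02 read, largest distance 0.000666 read); they give the depth and the voom alternative. The day 16 fit and the slope-difference fit were tested on simulated reads, drawn independently per library and so without the split of the day 16 replicates. Gene positions are those of a reference annotation on mm9, 1-based.

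Besides the sensors, the genes named are drawn from up to 4 per list with the smallest day 16 p, listed genes called in a fit, all cytokines, and the 3 genes most alike per sensor, of which 1 to 3 are printed. The lists are helicase cofactors, MAVS signalling, endosomal Toll-like receptors, other DNA sensing, nucleases and RNA modifiers, eIF2 kinases, cytokines and 3 marker lists.

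The labels number the day 16 replicates 1 to 3 in both lines. Deviations of same-numbered libraries from their line means correlated at 0.381, 0.272 and 0.333, all over 0.1. Exp replicate 2 also correlated with ctl replicate 3, at 0.209. Exp replicate 3 correlated best with ctl replicate 2, at 0.398. The split of replicate 1 from replicates 2 and 3 in both lines gives such values, so they cannot show whether the numbers pair the libraries. The main day 16 fit therefore has no block, and the replicate block is an alternative. The results were recomputed with different pseudocounts and filters, with median-of-ratios scaling, by voom, with the replicate block and with each replicate and day left out.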

Additional observations from a re-analysis of the deposited data

Results flagged for a closer look

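Between day 0 and day 20 exp minus ctl moved by 1.54 on the log2 scale for Ddx58 and by 1.70 for Ifih1, as fitted slopes. Both are listed because the term for unequal slopes in the 2 lines was past the adjusted threshold in limma. The members were chosen with this contrast in view, so neither value is independent support for a difference. In exp both genes had all 7 later libraries above day 0, but so did Mavs, Tlr3, Eif2ak2, Tmem173 and Samhd1. In ctl 4 of 7 later libraries for Ddx58 and 6 of 7 for Ifih1 were below day 0.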

How the results depend on the processing

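The limits are 1 line per genotype, 1 library at every day but day 16, and day 16 replicates that stand apart from each other. At day 16, 5 members were called, and 2 of the 7 tested at a mean FPKM of at least 5, where 5.1% of all genes were called. Leaving out 1 replicate gave 1 to 7 members and 3 to 8 other pathway genes, where 1.57% to 12.8% of all genes were called. With the replicate block, 4 members and 12 other genes were called, and with day 16 replicates 2 and 3 alone, chosen after seeing the data, 7 and 30. Over all genes these settings called 8.16% and 34.7%, against 6.1% without them. For the slope difference, 2 members were called. The count was 1 without a filter and 1 with the replicate block. At a mean FPKM of at least 5 it was 1 of the 7 tested, and Ifih1 was not among those. The count was 0 without day 0, 5, 9, 12 or 16 and 0 without day 16 replicates 2 and 3, and leaving out 1 replicate gave 0 to 2. Over all genes the full fit called 26 of 12559. The number was 25 without a filter, 19 at a mean FPKM of at least 5 and 37 with the block. It was 0 to 14 without 1 of those 5 days and 2 to 35 with 1 replicate left out. Among the other pathway genes 0 were called, or 2 without day 20. For the slope in exp, 3 members were called, 5 after median-of-ratios rescaling or without day 5, and 0 without day 0 or without day 16. At a mean FPKM of at least 5 the count was 1 of the 7 tested, and Ifih1 and Tlr3 were not among those. Over all genes 4.95% were called in the full fit, 5.4% at that filter and 3.35% after rescaling. The share was 11% without day 5 and 0.0717% without day 0. It is not given for the fit without day 16, so nothing is read from the count there. The replicate block moved no other count of members or pathway genes by over 1.5 times. No called member changed direction under any alternative. Dhx58, Tlr3 and Ifih1 have the fewest reads, and their log2 differences moved most with the pseudocount: at day 16 Ifih1 was 1.94 at a pseudocount of 0.1 and 0.76 at 5.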

Other observations

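A further 2 genes of DNA sensing and pyroptosis followed the split of the late exp libraries and not the order of the days. Ifi204, a member of the Ifi200 family of DNA-binding proteins, had 14.7 FPKM in exp day 16 replicate 1 and 12.0 at day 20, but 5.23 and 6.20 in replicates 2 and 3 and 3.61 to 5.94 at the earlier days. Gsdmd, the pore-forming gasdermin, had 14.7 and 12.9 FPKM in the first pair of libraries, against 5.66 and 5.98 in replicates 2 and 3 and 6.09 to 8.45 earlier. Krt14 was high in the same 2 libraries, at 107 and 82.9 FPKM. In ctl both genes were highest in replicate 1 among the day 16 libraries, at 5.82 and 4.82 FPKM. Neither gene was past the threshold at day 16, and both were chosen after their values were seen.

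Ifi204, Aim2, Ifi202b, Ifi203, Ifi205 and Mnda lie on chromosome 1, between 2200 and 2861 kb from Sdhc in mm9. At day 0, with 1 library per line, exp and ctl had 5.79 and 7.06 FPKM for Ifi204, 10.2 and 11.6 for Mnda, 2.27 and 2.67 for Ifi205 and 0.174 and 0.428 for Ifi203. Aim2 had 0.475 FPKM in exp and was listed at 0 in ctl, and Ifi202b was listed at 0 in both.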
